A study of Saccharomyces cerevisiae with 14 samples.

Results

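The genes described here encode the proteasome of budding yeast and the transcription factor that controls it. They were taken by systematic name from a fixed list of 32 subunits, 14 of the 20S core and 18 of the 19S cap, plus RPN4 (YDL020C). All 33 are among the 7122 genes of the table, and all 33 passed the filter on low values (a mean normalized count of at least 5). The study used RNASeq of total RNA from chaperone-enriched strains (ChES) of Saccharomyces cerevisiae Y258, an S288C derivative, to ask how gene expression responds to added chaperone. Each strain carried 1 chaperone gene on a URA3 plasmid: SSC1 (mitochondrial HSP70), LHS1 (an HSP70 relative of the endoplasmic reticulum), EGD2 (of the complex that binds nascent chains at the ribosome) or TCP1 (a subunit of the cytosolic chaperonin). The groups are oe SSC1, oe LHS1 and oe TCP1 with 3 libraries each and oe EGD2 with 2. The wild type Y258 with an empty vector had 3 libraries, which are not analysed here, so each strain was set against the other strains and no value below is a change from the control. The labels give the overexpression strains as exponential cultures in –URA medium with 2% glucose and the wild type in YPD, while the study's methods also describe induction in galactose and cells taken past the diauxic shift. Which medium and growth phase these libraries had could not be settled. The study names the replicates biological triplicates, and the labels give no date or batch.

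The proteasome degrades proteins tagged with ubiquitin. Its 20S core is a barrel of alpha rings, which guard the entrance, and beta rings, which hold the proteolytic sites. Its 19S cap has a base, whose ATPases unfold the substrate, and a lid, which removes the ubiquitin. In yeast Rpn4 activates the subunit genes through a promoter element called PACE (proteasome-associated control element), and the proteasome itself quickly degrades Rpn4, which closes a feedback loop. The RPN4 gene is in turn known to be switched on by Hsf1 under heat stress, by Yap1 under oxidative stress and by Pdr1 and Pdr3 under drug stress.

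The libraries held 10127206 to 20286329 reads. The lowest count behind any value of the 33 genes was 852 reads, which by counting alone gives an error of 3.43%. LHS1 and TCP1 were higher in every library labelled with their overexpression than in any other library. Their lowest own values were 23647 and 22042 normalized counts, against at most 2211 and 2577 elsewhere. EGD2 was also highest in its own libraries, but only just, with 17746 in the lower one and 16374 in oe TCP1 replicate 3. SSC1 was above all other libraries in only 1 of 3 libraries labelled oe SSC1 (replicate 2, 82518 normalized counts). In oe SSC1 replicate 3 it had 11336, below every other library. That group is therefore called the libraries labelled oe SSC1. Oe SSC1 replicate 2 and oe TCP1 replicate 3 stood apart from the others in RPN4 and in heat shock genes. Correlations with RPN4 and with the heat shock mean are therefore also given without both. The tests of strains were repeated with each library left out in turn, but not with both left out. In bulk RNA a change in the share of cells of one state and a change in the RNA of each cell cannot be told apart.

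The PACE motif, searched as GGTGGCAAA on both strands from 250 bases before to 50 bases after each start codon, was found once in each of 27 of the 32 subunit promoters (84.4%) and in 72 of 6021 promoters in all (1.2%). Subunits made up 37.5% of the promoters with the motif. The element was first described in proteasome promoters, so these shares are a description. With the last base left free the motif was again found in 27 subunit promoters and in 101 of 6021 (1.68%). The letters were not present in these windows of PRE5, PUP1, RPN10, RPN13 and RPN8, nor in that of RPN4. The following sites are shown because their genes carry the comparisons below and because they span the range of positions. Each is written 5′ to 3′ on the strand that reads GGTGGCAAA, with the motif in capitals and 10 bases on either side.
PRE9: ttaccctgcaGGTGGCAAAaaatttatag
PRE2: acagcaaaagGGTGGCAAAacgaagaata
PUP3: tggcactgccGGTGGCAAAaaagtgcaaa
PRE4: acgtatttaaGGTGGCAAAttctaaacca
RPT6: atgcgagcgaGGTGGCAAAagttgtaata
RPN1: tgtgttttacGGTGGCAAAaggcgagcac
RPN11: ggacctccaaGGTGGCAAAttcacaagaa

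The sequences come from the RefSeq R64 assembly. They lie at chrVII:761223-761251 (plus strand) for PRE9, chrXVI:732184-732212 (plus) for PRE2, chrV:349511-349539 (minus) for PUP3 and chrVI:249959-249987 (plus) for PRE4. Those of RPT6, RPN1 and RPN11 lie at chrVII:411352-411380 (minus), chrVIII:164838-164866 (minus) and chrVI:153259-153287 (plus). Every site lay upstream of its start codon, from 84 bases (RPT6) to 183 bases (PUP3) before it as counted from the far end of the motif, with a median of 120. The motif was on the strand of the gene in 19 promoters and on the other strand in 8, PRE4 among them. The base after the motif was A in 18 of 27 sites, as in PRE9 and PRE2 above, and the base before it was C in 13.

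**Figure D1:**
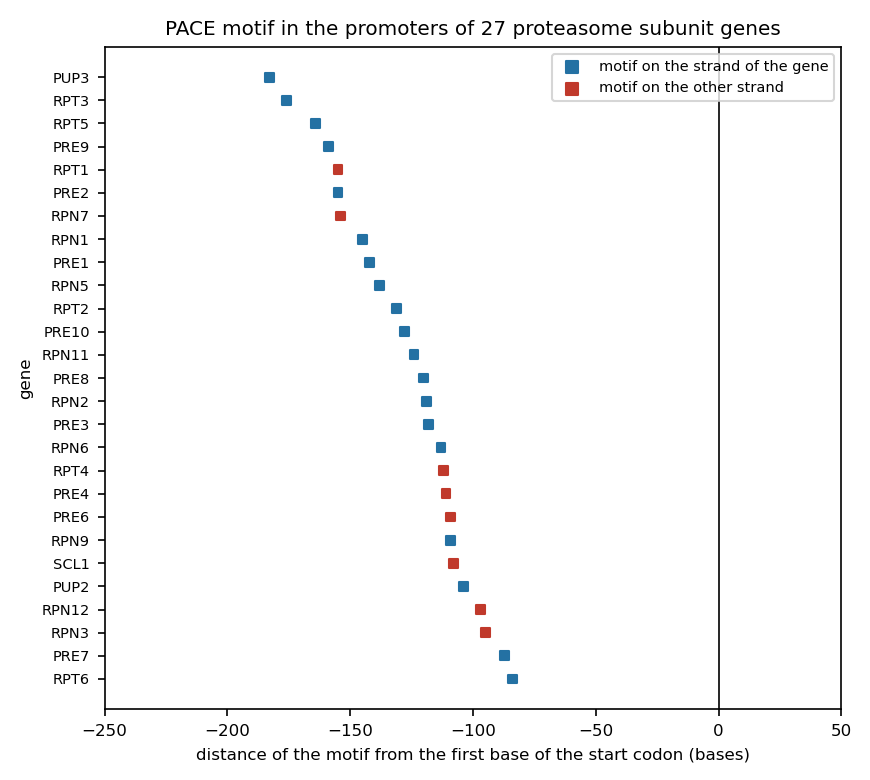
Position of the PACE motif in the 27 subunit promoters that hold it, as the distance in bases of its far end from the first base of the start codon, which is at 0. Sites run from 84 to 183 bases before the start codon; blue squares are the 19 on the strand of the gene and red squares the 8 on the other strand.

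The RPN4 promoter holds elements of another kind. The fragment below, on the minus strand at chrIV:417034-417160, covers 452 to 326 bases before the start codon and is shown because it carries matches to the sites of all the named activators of RPN4.
RPN4 promoter: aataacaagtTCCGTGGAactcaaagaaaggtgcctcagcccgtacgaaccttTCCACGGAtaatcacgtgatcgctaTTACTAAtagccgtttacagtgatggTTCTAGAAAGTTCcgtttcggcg

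Capitals mark, from the left, a pair of matches to the Pdr1 and Pdr3 element TCCGTGGA (the one nearer the gene on the other strand), the Yap1 element TTACTAA and a heat shock element, that is TTC and GAA blocks in alternation with a pair of free bases between them. Another match to the heat shock element lay 21 to 9 bases before the start codon. In windows of 600 bases before all 6021 start codons, on both strands, 1.3% held the Pdr1 and Pdr3 element, 13.7% the Yap1 element and 1.69% the heat shock element. A match is a run of letters and not a measured binding site.

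RPN4 varied far more than any subunit. Its normalized counts were 11522, 43684 and 5334 in replicates 1 to 3 labelled oe SSC1, 10936, 12839 and 12615 with LHS1 raised, 8771 and 9473 with EGD2 raised and 11274, 8072 and 2672 with TCP1 raised, each strain in the order of its replicate numbers. Oe SSC1 replicate 2 stood 3.40-fold above the next library, oe TCP1 replicate 3 was the lowest of all, and the ranges of oe SSC1 and oe TCP1 overlapped with those of the other strains. The highest library was 16.3-fold above the lowest, a ratio reached by 4.06% of the 5918 genes with a mean of at least 50, while the other 9 libraries spanned 2.41-fold. The spread within strains (residual SD on the log2 scale) was 1.01 for RPN4 against a median of 0.45 over all genes tested.

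No strain differed in RPN4 from the pooled others by more than that spread. On the scale of log2(normalized count + 1) its mean in the libraries labelled oe SSC1 was 0.66 above the mean of all other libraries (two-sided exact permutation test, p = 0.376). Oe LHS1 was 0.39 above the others (exact p = 0.473), oe EGD2 0.16 below (exact p = 0.727) and oe TCP1 0.93 below (exact p = 0.158). Adjusted over these 4 comparisons, the exact p was 0.630 for oe LHS1, oe TCP1 and oe SSC1 alike and 0.727 for oe EGD2. The smallest exact p that the design allows is 0.0121 for 3 libraries against 8 and 0.0364 for 2 against 9. Single libraries set the size and sign of 2 of these differences: without oe SSC1 replicate 2, the libraries labelled oe SSC1 were -0.17 from the others and oe EGD2 0.11 above them. Without oe TCP1 replicate 3, the difference of oe TCP1 shrank to -0.32.

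**Figure D2:**
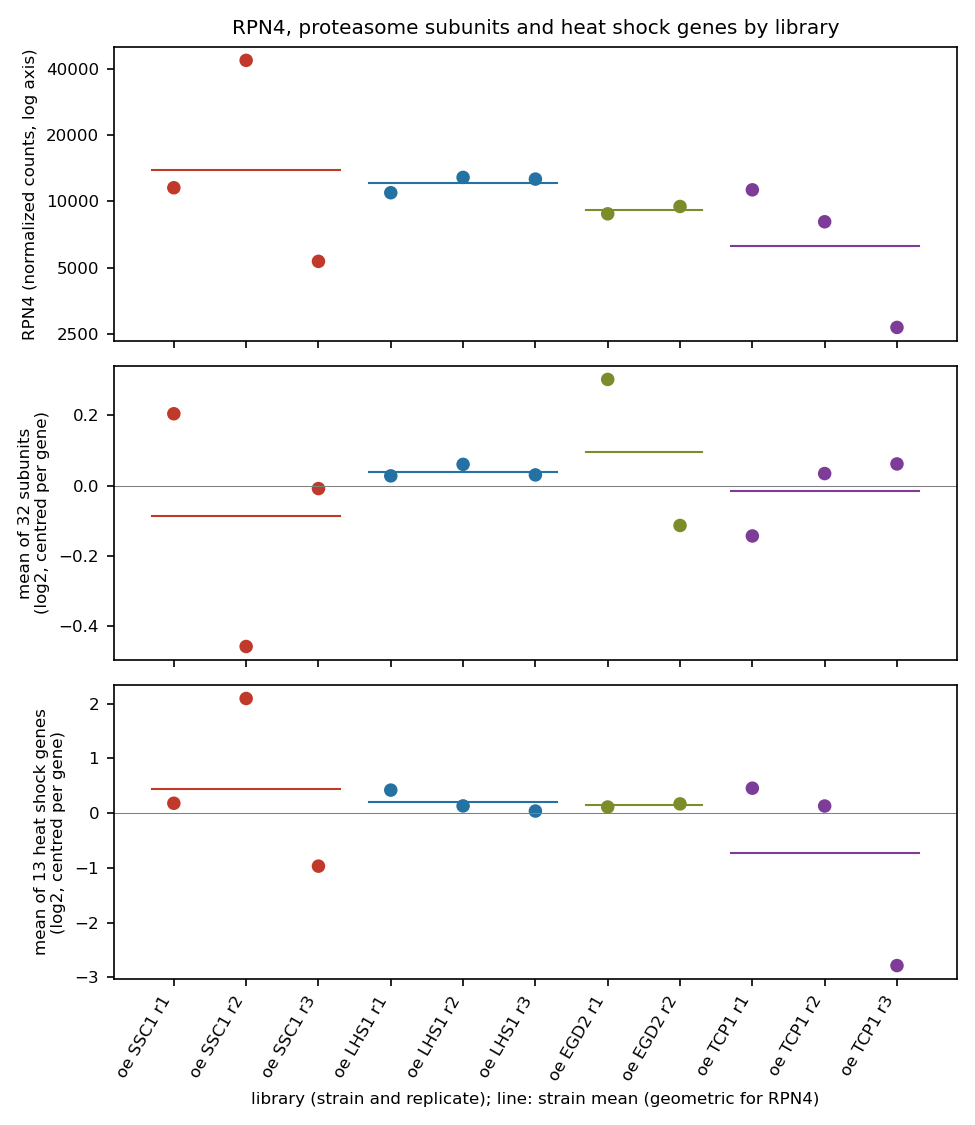
Normalized counts of RPN4 (top, log axis), the mean log2 level of the 32 subunits (middle) and of 13 heat shock genes (bottom), each gene centred on its own mean, in the 11 libraries; points are libraries and lines are strain means. In oe SSC1 replicate 2, RPN4 is highest at 43684 and the subunits are lowest at -0.46, while in oe TCP1 replicate 3 RPN4 is lowest at 2672 and the subunits are at 0.06.

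None of the 33 genes was called in a comparison of strains. In limma's F test for any difference among the 4 strains the adjusted p of the 33 genes lay between 0.964 and 0.998, and 0 of 33 had an unadjusted p under 0.05. Over all 6592 genes tested, 3 passed (0.0455%) and 37 had an unadjusted p under 0.05 (0.561%). edgeR on the recovered reads also called 0 of 33, with 0.0455% called over all genes and 2.08% at an unadjusted p under 0.05. DESeq2 called 0 of 33 as well, with 0.0457% called over 6563 genes and 4.31% at an unadjusted p under 0.05, and neither tool gave any of the 33 an unadjusted p under 0.05. For a single strain against the mean of the other 3, limma called 0 of 33 in each of the 4 comparisons, as did edgeR and DESeq2, and 0 of 33 had an unadjusted p under 0.05 by any of these tools. Over all genes the share at an unadjusted p under 0.05 in these comparisons was 0.364% to 3.69% by limma, 0.485% to 5.17% by edgeR and 1.13% to 7.65% by DESeq2. At the adjusted threshold the background was 0.0152% for all strains but oe EGD2, where it was 0%, by limma and by edgeR. By DESeq2 it was 0.0609% for oe SSC1, 0.0152% for oe LHS1, 0.0305% for oe EGD2 and 0.0457% for oe TCP1.

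The fitted differences of the subunits were small. In the libraries labelled oe SSC1 the 32 log2 differences ran from -0.29 (RPT6) to 0.21 (RPN1), with a median of -0.13 and 29 of 32 below 0. In oe LHS1 they ran from -0.22 (RPN8) to 0.40 (PRE1), with a median of 0.02 and 20 of 32 above 0. In oe EGD2 the median was 0.10 with 28 of 32 above 0, and in oe TCP1 it was -0.03 with 18 of 32 below 0. Over all genes tested the medians lay at 0.01 for oe SSC1 and oe LHS1, -0.01 for oe EGD2 and 0.00147 for oe TCP1. Standard errors of the subunits were 0.17 to 0.31 in the comparisons of 3 libraries and 0.20 to 0.36 for oe EGD2. The difference was smaller than its own standard error for all 32 subunits in oe TCP1, for 27 in oe EGD2 and for 29 in each of the other strains. The 4 comparisons share libraries, and the subunits within a library moved together, so the counts by sign are not independent pieces of evidence.

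**Figure D3:**
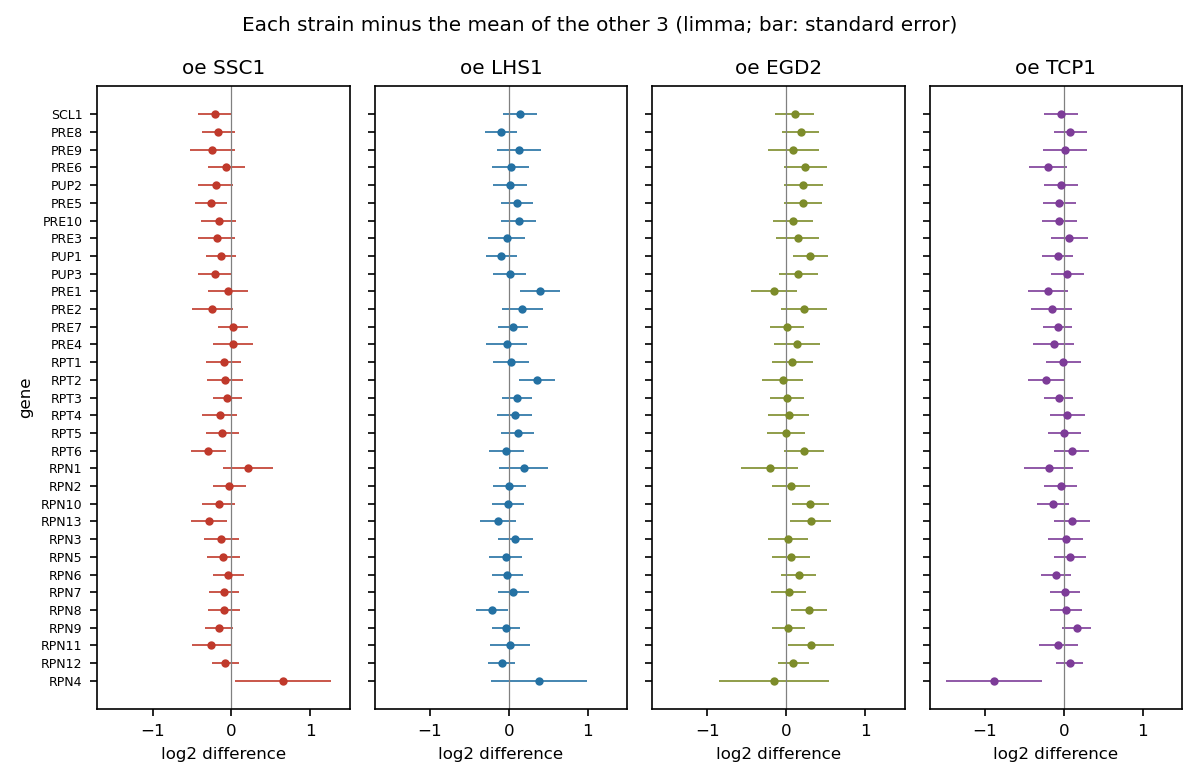
Log2 difference of each strain from the mean of the other 3 strains for the 33 genes (limma, points) with its standard error (bars), 1 panel a strain. Subunits lie between -0.29 and 0.40 in every panel, while RPN4 lies at 0.65 in oe SSC1 and -0.89 in oe TCP1 with a standard error of 0.61.

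The clearest feature of the subunits was a shift shared by most of them within single libraries. In oe SSC1 replicate 2, 31 of 32 subunits were below their own mean over the libraries and 27 of 32 (84.4%) had their lowest value of all 11 libraries, against 17.7% of the 5918 genes with a mean of at least 50. The mean subunit there was at -0.46 on the centred log2 scale, and 1.40-fold below the median library. In oe EGD2 replicate 1, all 32 subunits were above their own mean (mean 0.30) and 16 of 32 had their highest value, against 6.56% of genes. The other library of that strain, oe EGD2 replicate 2, had its mean subunit at -0.11, so the strain's libraries lay on opposite sides of 0. Oe SSC1 replicate 1 was the second highest library (0.20, with 30 of 32 above their own mean) and oe TCP1 replicate 1 the second lowest (-0.14, with 26 of 32 below). The subunits together took 0.581% of normalized reads in oe SSC1 replicate 2 and 0.620% to 0.901% in the other libraries. With TMM scaling of the recovered reads 29 subunits were lowest in oe SSC1 replicate 2, and with quantile normalization 24.

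**Figure D4:**
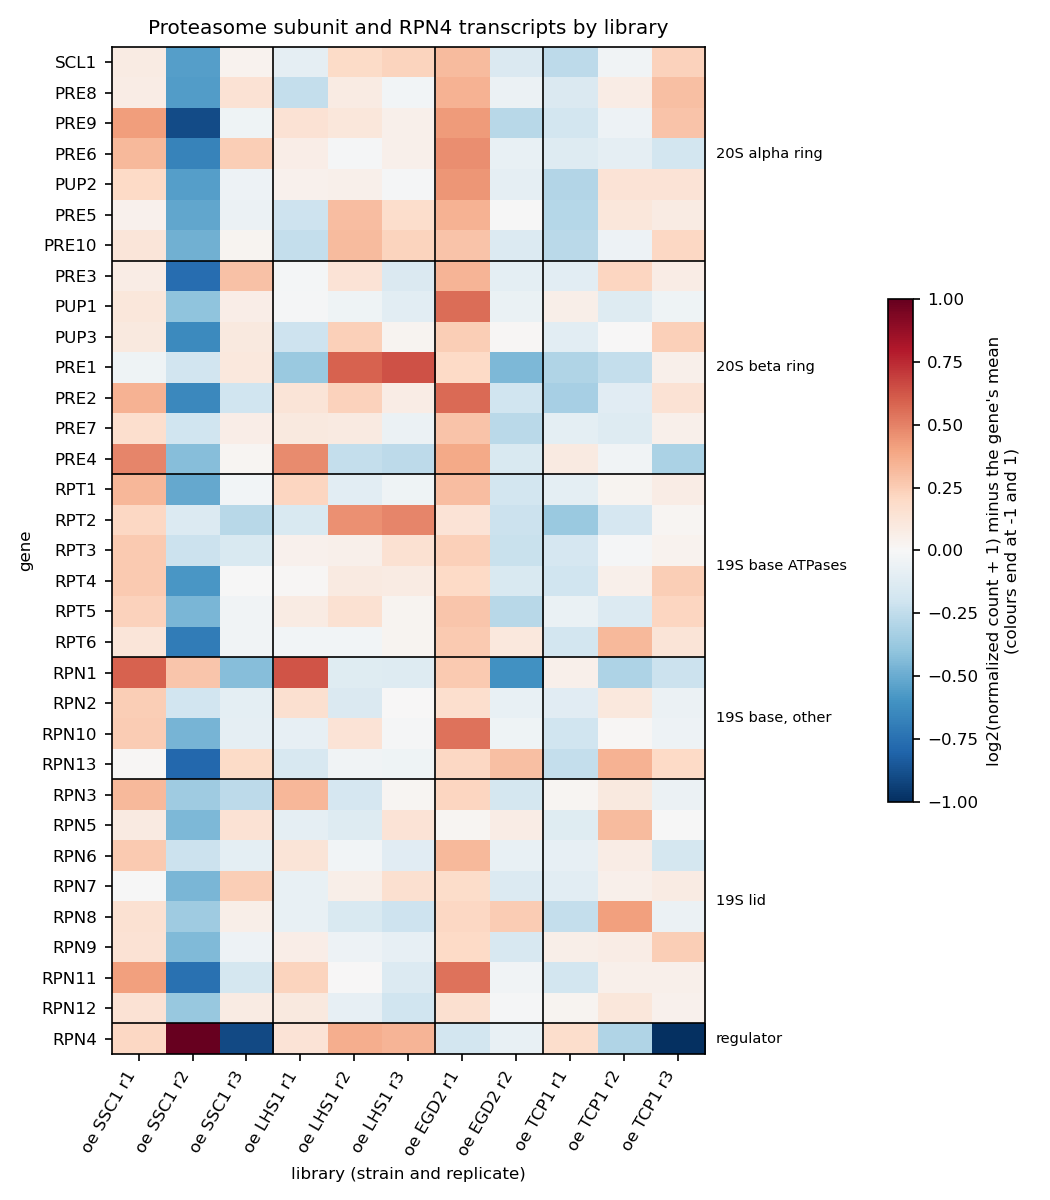
Level of the 33 genes in the 11 libraries as log2(normalized count + 1) minus the gene's mean (blue below, red above, colours ending at -1 and 1), with genes grouped by their place in the proteasome. The column of oe SSC1 replicate 2 is blue for 31 of 32 subunits and red for RPN4, and that of oe EGD2 replicate 1 is red for all 32 subunits.

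Among the alpha subunits of the core, PRE9 (YGR135W, alpha 3, the core subunit that cells can live without) had the widest range. Its normalized counts were 3726, 1497 and 2706 in replicates 1 to 3 labelled oe SSC1, 3086, 3021 and 2893 with LHS1 raised, 3738 and 2306 with EGD2 raised and 2457, 2697 and 3396 with TCP1 raised. The libraries labelled oe SSC1 thus covered almost the whole range of the 11 libraries, which was 2.50-fold from highest to lowest. PRE10 (YOR362C, alpha 7) had the narrowest range of the ring, from 1946 in oe SSC1 replicate 2 to 3377 in oe LHS1 replicate 2 (1.74-fold). All 7 alpha subunits had their lowest value in oe SSC1 replicate 2, and 6 of 7 had their highest in oe EGD2 replicate 1.

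Of the beta subunits, PRE2 (YPR103W, beta 5, the chymotrypsin-like site) ranged most. It had 4471, 2242 and 3064 normalized counts in replicates 1 to 3 labelled oe SSC1, 3833, 4117 and 3709 with LHS1 raised, 5209 and 3058 with EGD2 raised and 2788, 3241 and 3895 with TCP1 raised. PRE2 was 2.32-fold higher in oe EGD2 replicate 1 than in oe SSC1 replicate 2, and the strains overlapped. The other catalytic subunits had the same extreme libraries. PRE3 (YJL001W, beta 1, caspase-like, the only gene of the 33 with an intron) ran from 1049 to 2249 and PUP1 (YOR157C, beta 2, trypsin-like) from 1745 to 3411 normalized counts. PRE7 (YBL041W, beta 6) was the steadiest beta subunit, with 2669 to 3927 normalized counts (1.47-fold), its lowest value in oe EGD2 replicate 2 and its highest in replicate 1 of the same strain.

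A few core subunits had a pattern of their own. PRE1 (YER012W, beta 4) had 2807 and 2893 normalized counts in oe LHS1 replicates 2 and 3 but 1442 in oe LHS1 replicate 1, and 1359 to 2142 in all other libraries. Its difference for oe LHS1 was 0.40 on the log2 scale with a standard error of 0.25 (limma, adjusted p = 0.677), the largest of any subunit in any of the 4 comparisons. PRE4 (YFR050C, beta 7) was highest in oe SSC1 replicate 1 (3709) and oe LHS1 replicate 1 (3675), followed by oe EGD2 replicate 1 (3438), and at most 2817 elsewhere.

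In the base of the cap, the ATPase RPT6 (YGL048C) had the widest range of its ring. It had 3706, 2098 and 3323 normalized counts in replicates 1 to 3 labelled oe SSC1, 3346, 3342 and 3472 with LHS1 raised, 4076 and 3669 with EGD2 raised and 2998, 4270 and 3735 with TCP1 raised. Its difference for oe SSC1 was -0.29 on the log2 scale with a standard error of 0.22 (limma, adjusted p = 0.9999). RPT3 (YDR394W), another ATPase, was the steadiest of the ring, with 2521 to 3527 normalized counts (1.40-fold). RPT2 (YDL007W), the ATPase that helps to open the gate of the core, shared the pattern of PRE1: 6188 and 6324 in oe LHS1 replicates 2 and 3, 4052 in replicate 1 and 3496 to 5223 in the other libraries.

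RPN1 (YHR027C), the large scaffold of the base that also docks ubiquitin receptors, went its own way. It had 10238, 8212 and 5044 normalized counts in replicates 1 to 3 labelled oe SSC1, 10510, 6254 and 6198 with LHS1 raised, 8152 and 4457 with EGD2 raised and 7020, 5479 and 5864 with TCP1 raised. It was the only subunit above its own mean in oe SSC1 replicate 2, and replicate 1 held the highest value of each strain. Its correlation with the mean of the other subunits over the 11 libraries was 0.09. RPN2 (YIL075C), the other large scaffold of the base, was the steadiest of all 33 genes, with 5577 to 7562 normalized counts (1.36-fold). The ubiquitin receptors RPN10 (YHR200W) and RPN13 (YLR421C), neither of which had the motif, were lowest in oe SSC1 replicate 2 too. RPN13 had 828 normalized counts there and 1212 to 1815 elsewhere.

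Of the 8 lid genes on the list, RPN11 (YFR004W), the metalloprotease that cuts ubiquitin chains off the substrate, ranged most. It had 3213, 1442 and 2140 normalized counts in replicates 1 to 3 labelled oe SSC1, 2814, 2418 and 2193 with LHS1 raised, 3519 and 2353 with EGD2 raised and 2123, 2495 and 2496 with TCP1 raised. RPN11 was 2.44-fold higher in oe EGD2 replicate 1 than in oe SSC1 replicate 2. RPN12 (YFR052W), a lid subunit that joins late in assembly, had the narrowest range of the lid, from 1277 to 1859 normalized counts (1.46-fold) in the same pair of libraries. All 8 lid genes on the list had their lowest value in oe SSC1 replicate 2. SEM1 (YDR363W-A), also a lid subunit, was not on the list and is counted below with the accessory factors. It had 1487 normalized counts in oe SSC1 replicate 2 and was lowest in oe TCP1 replicate 1 (962). Its correlation with the mean subunit was 0.11. RPN8 (YOR261C), the partner of RPN11, was highest in oe TCP1 replicate 2 (4026) and oe EGD2 replicate 2 (3619).

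The typical subunit varied less than the typical gene. The median ratio of highest to lowest library was 1.82 for the 32 subunits, with a range of 1.36 to 2.50, and 2.47 for the 5918 genes with a mean of at least 50. The residual SD within strains was 0.17 to 0.44 (median 0.27), and all 32 lay below the median of 0.45 over all genes tested. The subunits had means of 1459 (RPN13) to 7039 (RPN1) normalized counts. The genes they are set against were not matched to that level and include low genes, whose counting error is larger. The subunits also varied together: the median Pearson correlation over their 496 pairs, across 11 libraries that share strains, was 0.66, with 95.8% of pairs positive. The median pair of genes with a mean of at least 50 was at -0.00059. Without oe SSC1 replicate 2 the median of the subunit pairs was 0.45, and with strain means subtracted it was 0.70. Of the 32 subunits, 29 had a correlation of at least 0.5 with the mean of the others, PRE9 and PUP2 at 0.97 being the highest, and the exceptions were PRE1 (0.33), RPT2 (0.42) and RPN1 (0.09).

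Core and cap were close to each other in every library. The mean of the 14 core genes minus that of the 18 cap genes, on the centred log2 scale, lay between -0.14 (oe SSC1 replicate 2) and 0.15 (oe LHS1 replicate 2) in the 11 libraries. Their means had opposite signs in 4 libraries (oe LHS1 replicates 1 and 2, oe SSC1 replicate 3 and oe TCP1 replicate 2), all within 0.15 of 0. In oe SSC1 replicate 2 the core stood at -0.53 and the cap at -0.40, and in oe EGD2 replicate 1 they stood at 0.37 and 0.25.

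Per length of coding sequence the subunits were close to each other. The mean level was 1768 to 4466 normalized counts per kb, which is 2.53-fold between PRE7 at the top and the lid gene RPN7 (YPR108W) at the bottom. In the core the lowest was PRE8 (YML092C, alpha 2) with 2368 per kb, and in the cap the highest was RPT2 with 3500 per kb. The median was 3300 per kb for the core and 2682 per kb for the cap. RPN4 had 7815 normalized counts per kb on average, above every subunit in 8 of the 11 libraries. In oe TCP1 replicate 3 it had 1674 per kb, below all 32 subunits, in oe SSC1 replicate 3 it had 3342 per kb with 11 subunits above it, and in oe EGD2 replicate 1 it had 5496 per kb with 1 above it.

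**Figure D5:**
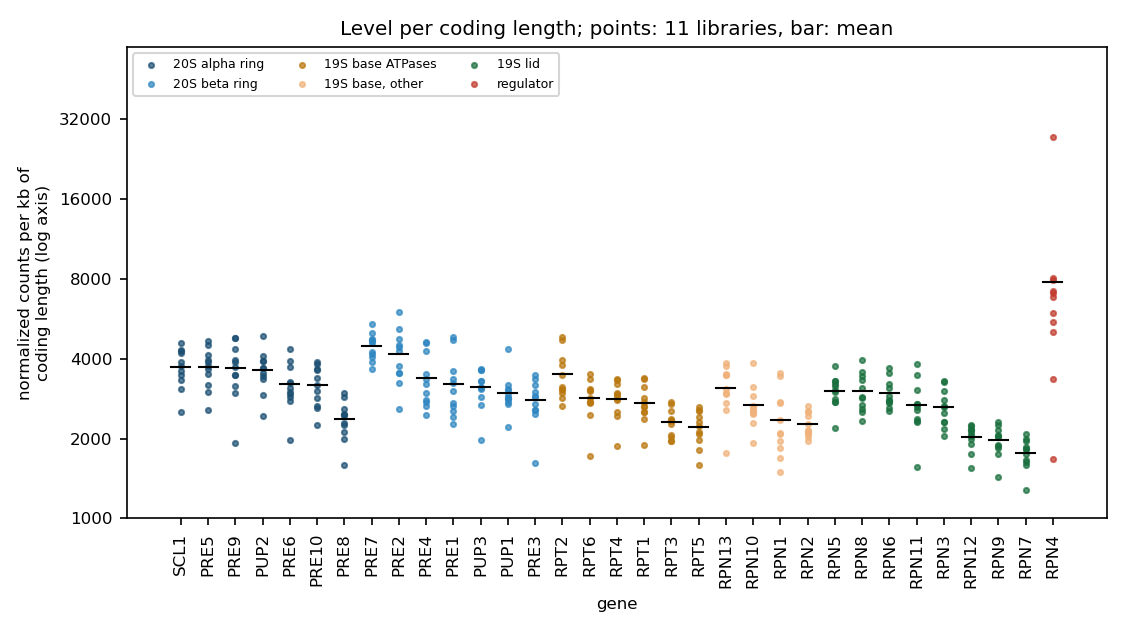
Normalized counts per kb of coding length (log axis) of the 33 genes, grouped by place in the proteasome; points are the 11 libraries and bars their mean. Subunit means lie between 1768 and 4466 per kb, and RPN4, with a mean of 7815 per kb, spreads from 1674 to 27371 per kb.

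The subunit transcripts and the RPN4 transcript did not rise and fall together. The Rpn4 protein was not measured. Across the 11 libraries the Pearson correlation of a subunit with RPN4 had a median of -0.50 and was negative for 30 of 32, against a median of -0.02 over the 6591 other genes tested, of which 13.4% lay at or below -0.50. PRE8 (-0.81) and RPN13 (-0.79) were the most negative, and RPN1 (0.41) and RPT2 (0.09) the only positive ones. Most of this rested on oe SSC1 replicate 2, where RPN4 was highest and the subunits lowest. Without it the median was -0.10 with 18 of 32 negative, and without it and oe TCP1 replicate 3, the pair of libraries farthest from the median of RPN4, it was 0.04 over 9 libraries. By ranks (Spearman) the median over all 11 was -0.25. In oe TCP1 replicate 3, with RPN4 at its lowest, the mean subunit was near its usual level (0.06).

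The low values in oe SSC1 replicate 2 were alike for subunits with and without the motif. On the centred log2 scale the median there was -0.46 for the 27 subunits with the exact letters and -0.46 for the 5 without them, which ran from -0.79 to -0.35. Variant sites and sites outside the window were not searched, so the 5 may still hold the element. Whether Rpn4 acts on any of these genes here was not tested. The 44 other tested genes with the motif had a median of 0.08, near that of all genes tested (0.02).

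Heat shock genes are given because most of them moved with RPN4. The mean of 13 heat shock genes on the centred log2 scale was 2.1 in oe SSC1 replicate 2, -2.78 in oe TCP1 replicate 3, -0.97 in oe SSC1 replicate 3 and 0.04 to 0.46 in the other 8 libraries. SSA4 (YER103W, a stress-induced cytosolic HSP70), the gene with the widest range on that list, ran from 3635 to 318510 normalized counts, with its highest and lowest values in the same libraries as RPN4. BTN2 (YGR142W, which sorts misfolded proteins) ran from 2584 to 194626 and HSP42 (YDR171W, a small heat shock protein) from 1845 to 124960, again with those libraries at the ends, as for 11 of the 13 genes. HSP26 (YBR072W, another small heat shock protein) differed: it was highest in oe EGD2 replicate 2 (80305) and had 3700 and 3659 in oe LHS1 replicates 2 and 3, and its correlation with RPN4 was 0.20. The correlation of that mean with RPN4 across the 11 libraries was 0.95, and 0.79 without the same pair of libraries. By ranks (Spearman) over all 11 it was 0.65. Among the libraries left without the pair, oe SSC1 replicate 3 was low in both, with RPN4 at -0.90 on the centred log2 scale. RPN4 lay between -0.30 and 0.37 in the other 8, so the 0.79 leans on that library. The correlation of the heat shock mean with the mean subunit was -0.48, and -0.02 without the pair. What part the heat shock genes have in the level of RPN4 or of the subunits was not tested.

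The transcripts of the known activators of RPN4 moved much less than RPN4 itself. PDR3 (YBL005W) had its lowest value, 517 normalized counts, in oe TCP1 replicate 3, and its highest, 1345, in oe SSC1 replicate 2 (2.60-fold), with 1303 in oe SSC1 replicate 3 and at most 827 elsewhere. HSF1 (YGL073W) was lowest in oe TCP1 replicate 3 (1496) and highest in oe EGD2 replicate 2 (2990). YAP1 (YML007W), whose own promoter held the PACE letters, ran from 2533 to 4309. Of the 4 regulators 0 were called by limma in any comparison, and 0 had an unadjusted p under 0.05.

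Of the proteasome assembly chaperones and accessory factors, 18 genes, only some had the pattern of the subunits. Their median correlation with the mean subunit was 0.12, against 0.83 for the subunits themselves, each of which is part of that mean. UMP1 (YBR173C), which is needed for the maturation of the core, had 0.81, and the core assembly chaperones IRC25 (YLR021W) and POC4 (YPL144W) had 0.64 and 0.61, all named after their values were seen. These were among the 6 of 18 with their lowest value in oe SSC1 replicate 2, UMP1 with 693 normalized counts there and up to 1534 elsewhere. ADD66 (YKL206C) and PBA1 (YLR199C), core assembly chaperones of the same list, had 0.38 and -0.38. PBA1 was lowest in oe EGD2 replicate 1. At the other end, BLM10 (YFL007W), an activator that binds the core in place of the cap, had -0.57. By limma 0 of 18 were called in any comparison, and 0 had an unadjusted p under 0.05. TMA17 (YDL110C), an assembly chaperone of the ATPase ring that is made under stress, had the widest range, 11.3-fold. It had 3813, 1466 and 2413 normalized counts in replicates 1 to 3 labelled oe SSC1, 4872, 906 and 801 with LHS1 raised, 5187 and 5444 with EGD2 raised and 6480, 5181 and 574 with TCP1 raised. Low values thus lay in oe LHS1 replicates 2 and 3 and oe TCP1 replicate 3. SPG5 (YMR191W), a proteasome regulator of stationary phase, had 1012 and 1111 in oe LHS1 replicates 2 and 3, 1106 in oe TCP1 replicate 3 and 1504 to 5489 elsewhere. NAS2 (YIL007C), another chaperone of the base, ran from 280 to 956 and was lowest in the same 3 libraries.

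Of 29 genes for ubiquitin, its ligases and proteases and substrate delivery, 0 were called by limma, and 1 had an unadjusted p under 0.05, in the comparison of oe LHS1, where the share over all genes was 3.69%. UBI4 (YLL039C), the stress-induced polyubiquitin gene, ranged most, with 33787 normalized counts in oe SSC1 replicate 2 and 2272 in oe TCP1 replicate 3, the libraries where RPN4 was highest and lowest. HUL4 (YJR036C, a ligase) ran from 153 in oe LHS1 replicate 2 to 881 in oe EGD2 replicate 2. HRD1 (YOL013C), a ligase of the endoplasmic reticulum, had 3674 and 3633 in oe LHS1 replicates 2 and 3, 3410 in oe SSC1 replicate 2 and 769 to 1722 elsewhere. UBR2 (YLR024C), the ligase that tags Rpn4 for degradation and was picked out after its values were seen, had 1991 normalized counts in oe SSC1 replicate 2, 606 in oe TCP1 replicate 3 and 736 to 1363 in the others. Its correlation with RPN4 across the 11 libraries was 0.92. The median over the 29 genes was -0.08, with 18 negative and 11 positive. MUB1 (YMR100W) and RAD6 (YGL058W) of the same list, also named with values known, had 0.22 and -0.16. Promoters with the PACE letters in these lists were those of ECM29, UBI4, UBA1 and CDC48, besides YAP1.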

How the data were processed

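RNASeq of 11 libraries was used. For their own differential expression the authors first removed outlier replicates by principal component analysis, and their text does not name them. The main results here leave no library out. The authors mapped their 50-base single-end reads with STAR 2.3.0e (genome sacCer3), and htseq-count 0.6.0 gave counts per Ensembl gene without regard to strand, from alignments of quality 10 or more. The deposited signal is their count divided by a DESeq2 size factor (normalized count). Whole reads were recovered from its steps, and 100% of values lay within 0.01 of a whole number in every library. A further 4 lines were empty and are not reported.

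Strains were compared with limma 3.58.1 (R 4.3.3, trended, all 4 strains in one fit) on log2(normalized count + 1) for the 6592 genes whose mean was 5 or more, Benjamini-Hochberg adjusted p under 0.05. A fold change on that scale understates that of low genes. edgeR 4.0.16 and DESeq2 1.42.0 on the recovered reads were alternatives. RPN4 was also tested by exact permutation over libraries (scipy 1.17.1). Scripts were tested on simulated data. Gene levels were also centred on their mean over the 11 libraries. Coordinates and sequences are of RefSeq R64, the assembly of sacCer3. No other gene of the RefSeq annotation overlaps the 33 genes. Genes that only the Ensembl annotation holds were not checked for overlap. p-values measure the spread between these libraries.

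Named genes were RPN4, genes called, those with the widest and narrowest range in each place of the complex, the highest and lowest per kb in core and cap, the 2 highest and lowest correlations with RPN4, the 3 widest ranges in each other list and the 10 genes most like the mean subunit. Further subunits named for a pattern or a role, such as PRE1, PRE4, PRE3, PUP1, PUP2, RPN8, RPN10 and SEM1, were added with values known. Members and lists were chosen with earlier results of these data known.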

Additional observations from a re-analysis of the deposited data

How the results depend on the processing

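The count of 0 among the 33 genes, and among the 51 genes of the assembly, ubiquitin and RPN4 regulator lists, held with a pseudocount of 0.5 or 10, without a filter, with a mean of at least 50, with TMM scaling, quantile normalization, edgeR and DESeq2. Leaving out each library in turn gave 0 calls each time. With 1 library of oe EGD2 left, the lone library was assumed to vary like the other strains. For RPN4, leave-one-out differences ran from -0.17 to 1.35 for oe SSC1, 0.13 to 0.70 for oe LHS1, -0.40 to 0.11 for oe EGD2 and -1.35 to -0.32 for oe TCP1, and no exact p passed. The signs of oe SSC1 (-0.17) and oe EGD2 (0.11) turned without oe SSC1 replicate 2. The median correlation of subunits with RPN4 ran from -0.60 to -0.10 over these settings and was 0.037 without oe SSC1 replicate 2 and oe TCP1 replicate 3. It was -0.32 with quantile normalization and -0.58 with strain means subtracted. TMM shifted the median gene of a library by -0.08 to 0.04 and quantile normalization by -0.05 to 0.09.

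Libraries with the same replicate number were alike in some pairs and opposed in others. Over 15 such pairs, the correlation of deviations from strain means ran from -0.58 to 0.64, with 8 above 0.1. The deviations of the oe EGD2 libraries mirror each other by construction, which forces some pairs to be opposed. What the replicate numbers share was not tested. With replicate number as a block, 0 of 33 genes were called in any comparison, and limma put RPN4 at 0.80 for SSC1, at 0.53 for LHS1, at -0.58 for EGD2 and at -0.74 for TCP1. Of the 11 libraries, 8 correlated best with one of their own number.

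The heat shock list was not run under these settings. Alternatives for those 3 lists, for the check of labels (SSC1 was again the exception under TMM and quantile normalization) and without the pair of libraries were chosen after seeing the data. The 852 reads behind the lowest value leave a counting error far below the spread within strains.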

Other observations

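The genes whose profile was most like the mean subunit, among 5918 genes with a mean of at least 50 and leaving the subunits aside, were ERG20 (r = 0.97 over the 11 libraries), VMA4, PDI1, TRX1, ABF2, CCS1, SBA1, SAR1, SMT3 and YCR024C-B (0.91). ERG20, the farnesyl pyrophosphate synthase of the sterol pathway, ran from 2628 normalized counts in oe SSC1 replicate 2 to 7340 in oe EGD2 replicate 1. VMA4 (0.96), a subunit of the vacuolar proton pump, ran from 646 to 2224 in the same libraries. PDI1 (0.95), the disulfide isomerase of the endoplasmic reticulum, ran from 6242 to 12520 and was the only one of the 10 with the PACE letters in its promoter. SMT3 (0.91), which encodes the ubiquitin relative SUMO, ran from 1122 to 2551. All 10 had their lowest value in oe SSC1 replicate 2. They were picked for likeness to a mean that was itself lowest there, so this follows largely from the choice. Of the 32 subunits, each ranked with itself in the mean, 18 were among the 100 genes most like it.

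EGD2, one of the overexpressed chaperones, was lowest in oe SSC1 replicate 2 as well (6127 normalized counts, against 6824 to 24039 elsewhere). Depth did not follow either measure: over the 11 libraries the correlation with reads was 0.06 for the mean subunit and 0.05 for RPN4.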
